A study of Homo sapiens with 6 samples.

Results

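The genes of cholesterol synthesis, of its control by SREBP2 and of cholesterol transport within the cell were examined after knockdown of AKR1B10 in PC9-BrM3, a subline of the human lung adenocarcinoma line PC9 that metastasizes readily to the brain. The genes were chosen by name, with earlier results of these data known. They are 27 of the 58735 genes in the table, and every one was found there. Of these, 26 had a mean of at least 1 FPKM (fragments scaled by exon length and library size) and were tested, and STARD4 was listed at 0 in all 6 libraries. The data are mRNA sequencing of 3 BrM3-shAKR1B10 libraries, in which AKR1B10 was silenced by a lentiviral shRNA, and 3 BrM3-shNC libraries, which carried a negative control shRNA. Both groups share the same cell line, a lentiviral vector and routine culture in RPMI1640 with 10% FBS, and each of them stands for a single shRNA construct in a single line. Whether the replicates came from separate cultures is not given in the sources used here, so the p-values measure the spread between these libraries, which may be technical.

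Cells make cholesterol from acetyl-CoA through mevalonate, prenyl diphosphates, squalene and lanosterol. When cholesterol in the membrane of the endoplasmic reticulum is low, SCAP carries the transcription factor SREBP2 to the Golgi, where it is cut and freed to switch on most genes of the pathway. When cholesterol is high, INSIG proteins hold SCAP and SREBP2 back. NF-Y, a factor that binds the CCAAT box, is a known partner of SREBP2 on many of these promoters. AKR1B10 itself is an aldo-keto reductase, whose known substrates include aldehydes derived from lipids and prenyl groups.

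The libraries held 16964504 to 18709028 reads on genes. AKR1B10 stood at 108, 107 and 110 FPKM in BrM3-shAKR1B10 and at 799, 775 and 772 FPKM in BrM3-shNC, which is a log2 fold change of -2.85 ± 0.03 (SE, adjusted p = 1.6e-07, limma). All 7 epithelial markers were at 1 FPKM or more in every library, with a summed level of 3259 to 3350 FPKM in BrM3-shAKR1B10 and 3078 to 3451 FPKM in BrM3-shNC. All 4 lung lineage markers (NKX2-1, NAPSA, SFTPB and SFTPC) were under 1 FPKM in every library, so the labelled origin could be checked as epithelial only. Of 15 markers of leukocytes, endothelium, fibroblasts and brain, 12 were under 1 FPKM in every library and COL1A2 and DCN were listed at 0 throughout. Their summed level was 6.35 to 6.48 FPKM in BrM3-shAKR1B10 and 7.50 to 7.92 FPKM in BrM3-shNC. The 3 at 1 FPKM or more moved in different directions. CDH5 was called higher, at 1.94, 1.86 and 1.75 FPKM against 1.17, 1.09 and 1.16 FPKM (log2 fold change 0.65, adjusted p = 0.0039). COL1A1 was called lower, at 1.15, 1.17 and 1.33 FPKM against 1.98, 2.02 and 1.96 FPKM (log2 fold change -0.67, adjusted p = 0.0032). MBP was at -0.40 on the log2 scale (adjusted p = 0.0022), and the part of these markers in the results was not tested. Replicate 1 of BrM3-shNC stood apart from its group, with a chi-square per gene of 4.88 and 5.42 against the other control libraries, where all other replicate pairs gave 2.45 to 2.70.

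The log2 fold change after AKR1B10 knockdown was above 0 for 20 of the 26 tested genes (76.9%), beside 48.4% of all genes tested. A gene was called when its adjusted p was under 0.05 and its absolute log2 fold change was over 0.5. By this rule 8 genes rose, namely HMGCS1, MVK, SQLE, TM7SF2, MSMO1, HSD17B7, SC5D and INSIG1. These 8 are 30.8% of the genes tested here, beside 5.83% of all 13150 genes tested that rose and 7.45% that fell. None was called lower by limma on log values or by voom on recovered reads. At an unadjusted p under 0.05, 18 were higher and 3 were lower, beside 23.8% and 27.3% of all genes. At an adjusted p under 0.05 without a fold threshold, 18 were higher, 2 were lower and 6 did not pass, where 19.4% of all genes were higher and 23.1% were lower. The libraries of the 2 groups did not overlap for 17 genes that were higher and 3 that were lower, beside 25.5% and 29.2% of all genes. The median log2 fold change was 0.32 over the 26 genes and -0.01 over all genes tested. An exact two-sided permutation test gave p = 0.10 for each of the 20 genes without overlap, the smallest value that 3 against 3 libraries allow. In bulk libraries, a different share of cells in some state and a different amount of RNA per cell cannot be told apart.

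**Figure D1:**
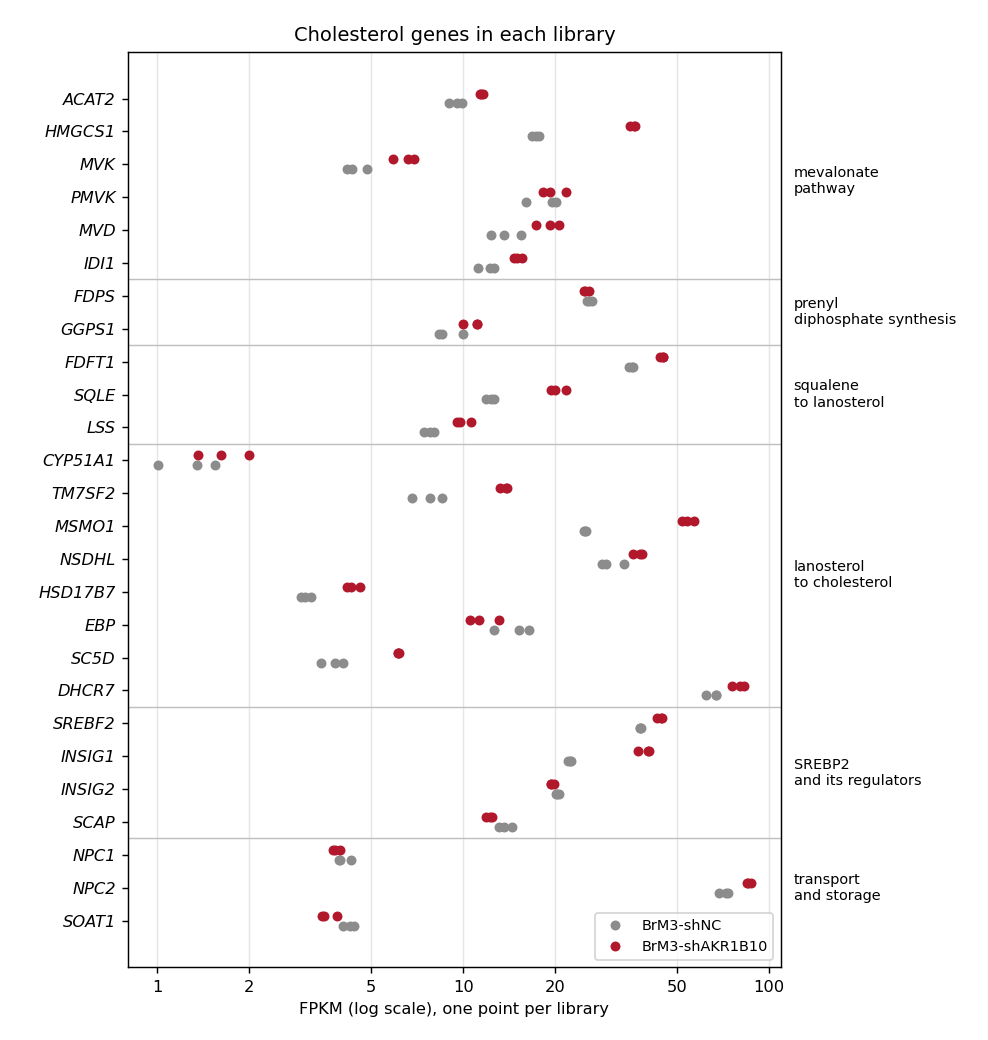
FPKM of the 26 tested genes on a log axis, with 1 point for each library, BrM3-shAKR1B10 in red and BrM3-shNC in grey, ordered along the pathway. HMGCS1, SQLE, TM7SF2, MSMO1, SC5D and INSIG1 show wide gaps between the groups, while FDPS, PMVK, CYP51A1 and EBP overlap.

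The promoters of these genes were read from RefSeq (GRCh38.p14), as windows from 250 bases before to 50 after the RefSeq gene start, and 24 of the 27 genes had an entry. Positions are counted from that start, which differs from the outer end of the GENCODE gene models behind the FPKM values. The 2 starts lay within 250 bases of each other for 14 genes, 250 to 1000 bases apart for 7 and over 1000 bases apart for 3. These 3 were IDI1, with the RefSeq start 7534 bases before the gene model, and DHCR7 and SCAP, with it 4475 and 1185 bases inside, so their windows do not describe the outer start of the gene models. The genes without an entry were ACAT2, FDFT1 and SQLE. The CCAAT box (letters CCAAT, either strand) was found in 17 of the 24 windows, or 70.8%, against 34.6% of 35116 RefSeq promoters and 36.6% of the 8901 promoters of genes tested here. At least 2 boxes were found in 11 of them, or 45.8%, against 10.8% of all promoters and 14.0% of those of genes tested. All 7 genes that rose and had an entry held a box, as did 10 of the other 17. Among these 10 is STARD4, which was not tested and holds 2 boxes. The SREBP site in its classical form (letters TCACNCCAC, either strand) was found only in SREBF2, the gene of SREBP2. This is 4.17% of the 24 windows, against 1.13% of all promoters and 1.04% of those of genes tested. Other forms of the site were not searched, so a window without this form may still hold an SREBP site. The E box (letters CACGTG, the same on both strands) was found in LSS, SC5D, INSIG1 and SCAP, or 16.7%, against 7.26% of all promoters and 10.2% of those of genes tested. A match describes letters in the window and no binding was measured.

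Stretches before the RefSeq start that lie outside annotated exons are given for HMGCS1, MSMO1, HSD17B7 and INSIG1, which rose, and for MVD and NSDHL, which hold several boxes and passed the adjusted p without the fold threshold. Capitals mark the CCAAT box, which reads ATTGG where it lies on the opposite strand. The HMGCS1 stretch is chr5:43313513-43313662 on the minus strand, with a box at -155 from the RefSeq start, which lies 100 bases inside the gene model. The MSMO1 stretch is chr4:165327419-165327622 on the plus strand and holds 3 of the 4 boxes of its window. The HSD17B7 stretch is chr1:162790452-162790701 on the plus strand, with a box at -52. The INSIG1 stretch is chr7:155297628-155297775 on the plus strand, with a box at -170. The MVD stretch is chr16:88663162-88663297 on the minus strand, with 3 boxes. The NSDHL stretch is chrX:152830813-152830966 on the plus strand, where the boxes at -113 and -110 overlap on opposite strands.
HMGCS1: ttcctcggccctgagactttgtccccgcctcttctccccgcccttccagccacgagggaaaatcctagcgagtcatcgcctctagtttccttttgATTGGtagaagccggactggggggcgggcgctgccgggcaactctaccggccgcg
MSMO1: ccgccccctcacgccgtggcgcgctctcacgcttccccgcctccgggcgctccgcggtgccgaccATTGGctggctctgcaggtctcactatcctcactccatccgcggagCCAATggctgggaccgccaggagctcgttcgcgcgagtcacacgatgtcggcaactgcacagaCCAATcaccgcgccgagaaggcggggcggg
HSD17B7: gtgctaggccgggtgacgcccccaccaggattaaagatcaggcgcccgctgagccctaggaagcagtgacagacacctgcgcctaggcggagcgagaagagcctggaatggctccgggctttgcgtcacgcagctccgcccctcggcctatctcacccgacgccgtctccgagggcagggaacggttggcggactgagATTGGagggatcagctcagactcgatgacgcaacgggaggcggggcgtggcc
INSIG1: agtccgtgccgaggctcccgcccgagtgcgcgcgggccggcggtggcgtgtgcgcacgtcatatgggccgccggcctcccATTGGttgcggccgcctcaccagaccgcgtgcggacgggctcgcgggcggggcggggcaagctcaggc
MVD: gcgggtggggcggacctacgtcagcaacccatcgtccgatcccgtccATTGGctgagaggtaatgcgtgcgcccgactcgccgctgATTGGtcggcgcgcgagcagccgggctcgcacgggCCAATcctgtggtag
NSDHL: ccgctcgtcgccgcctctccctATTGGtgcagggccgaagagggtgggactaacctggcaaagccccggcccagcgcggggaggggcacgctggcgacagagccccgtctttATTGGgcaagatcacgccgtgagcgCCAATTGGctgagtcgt

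The SREBP site of SREBF2 starts at -133 and is shown with its flanks, chr22:41832964-41832988 on the plus strand, with the site in capitals. These bases lie within an exon of the GENCODE annotation. A CCAAT box follows at -106.
SREBF2: acgcgccaTCACCCCACgcaccgct

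**Figure D2:**
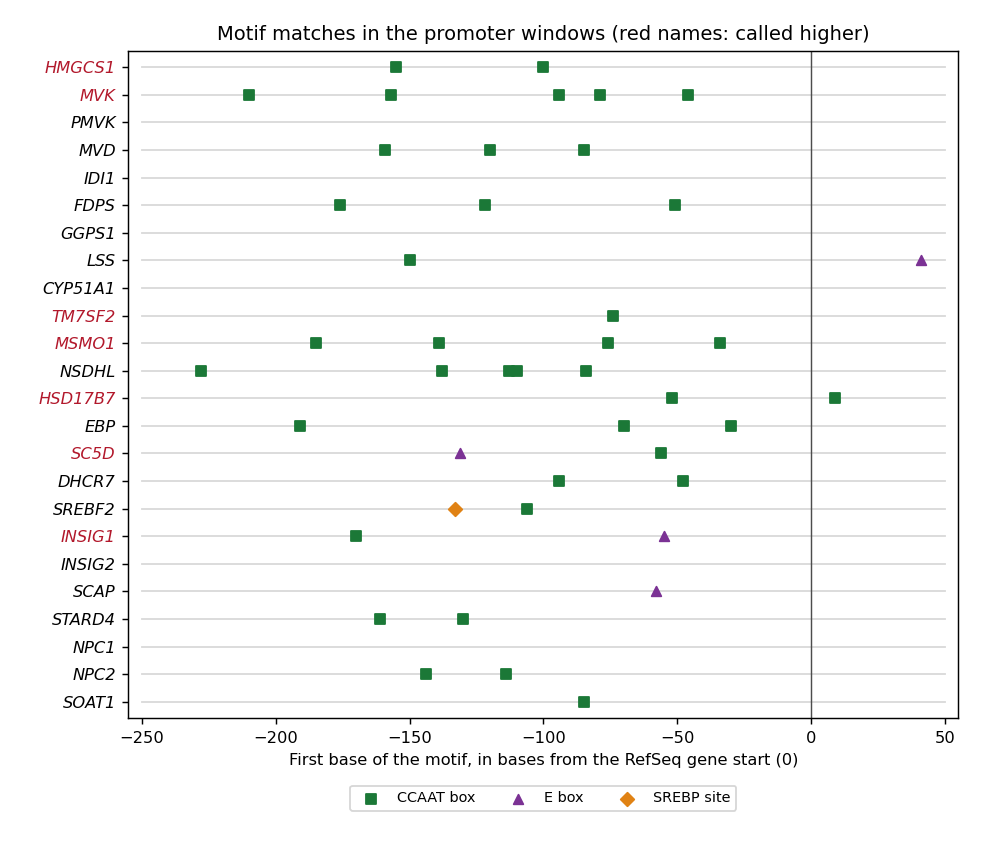
Positions of CCAAT boxes (squares), E boxes (triangles) and the SREBP site (diamond) in the 24 promoter windows, in bases from the RefSeq gene start, with the names of genes that rose in red. MVK and NSDHL hold 5 CCAAT boxes each and MSMO1 holds 4, while PMVK, IDI1, GGPS1, CYP51A1, INSIG2, SCAP and NPC1 hold none.

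Of the 6 listed genes of the mevalonate pathway, 2 rose, 5 were higher by adjusted p without the fold threshold, and none was lower. Over all genes tested, 5.83% rose, and by adjusted p alone 19.4% were higher and 23.1% were lower. HMGCS1, the cytosolic synthase that makes HMG-CoA, lies on chromosome 5 from 43289395 to 43313512 (GRCh38). It stood at 35.1, 36.5 and 36.3 FPKM in BrM3-shAKR1B10 and at 17.7, 16.8 and 17.3 FPKM in BrM3-shNC, or 2.08-fold higher. All 3 silenced libraries were far above the controls, with a log2 fold change of 1.05 ± 0.03 (SE, adjusted p = 1.0e-05, limma). MVK, the kinase that phosphorylates mevalonate, stood at 6.91, 6.59 and 5.88 FPKM against 4.17, 4.34 and 4.84 FPKM, a log2 fold change of 0.53 ± 0.08 (SE, adjusted p = 0.0027). The MVK groups did not overlap, but the call was lost at 0.48 without replicate 1 of BrM3-shAKR1B10 and at 0.48 without replicate 1 of BrM3-shNC.

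MVD, which decarboxylates mevalonate diphosphate, lay just under the fold threshold. It stood at 19.2, 17.3 and 20.5 FPKM against 12.3, 13.6 and 15.5 FPKM, a log2 fold change of 0.46 ± 0.10 (SE, adjusted p = 0.0094). It passed the threshold at 0.53 without replicate 2 of BrM3-shAKR1B10 and at 0.55 without replicate 3 of BrM3-shNC. IDI1, the isomerase that yields dimethylallyl diphosphate, stood at 14.7, 15.0 and 15.6 FPKM against 12.2, 11.1 and 12.6 FPKM. Its log2 fold change was 0.33 (adjusted p = 0.0034), under the fold threshold, with no overlap between the groups.

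ACAT2, the cytosolic thiolase that joins acetyl-CoA units, stood at 11.5, 11.4 and 11.6 FPKM against 9.93, 8.98 and 9.57 FPKM, a log2 fold change of 0.27 (adjusted p = 0.0038). Of its exonic bases, 52.3% lie opposite other genes, among them 397 bases shared with TCP1 at 52.9 to 69.2 FPKM, and how reads on both strands were assigned is not given in the sources used here. PMVK, which phosphorylates mevalonate phosphate, stood at 19.3, 21.7 and 18.2 FPKM against 16.0, 19.5 and 20.1 FPKM. These groups overlapped, with a log2 fold change of 0.09 (adjusted p = 0.51), which became -0.012 without replicate 1 of BrM3-shNC.

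Prenyl diphosphates are the branch point to sterols, to coenzyme Q and to the lipid anchors of proteins, and neither of the 2 genes here passed the fold threshold. FDPS, which makes farnesyl diphosphate, stood at 25.7, 24.9 and 25.0 FPKM in BrM3-shAKR1B10 and at 25.4, 25.7 and 26.4 FPKM in BrM3-shNC. The groups overlapped and the log2 fold change was -0.04 ± 0.03 (SE, adjusted p = 0.40), with a sign that turned under 3 other scalings. Its promoter window holds 3 CCAAT boxes. GGPS1, which makes geranylgeranyl diphosphate, stood at 9.95, 11.1 and 11.1 FPKM against 10.0, 8.32 and 8.53 FPKM. Its groups overlapped through replicate 1 of BrM3-shNC and the log2 fold change was 0.26 (adjusted p = 0.043), with an adjusted p of up to 0.12 among the alternatives. The GGPS1 exons share 37.3% of their bases with TBCE on the same strand, which stood at 0.696 to 1.16 FPKM.

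All 3 genes from farnesyl diphosphate to lanosterol were higher by adjusted p, and 1 of them rose past the fold threshold. Of all genes tested, 19.4% were higher by adjusted p alone and 5.83% rose past the threshold. FDFT1, the squalene synthase, stood at 44.0, 44.9 and 45.0 FPKM against 35.9, 34.7 and 35.7 FPKM. The replicates were tight and the groups were apart, with a log2 fold change of 0.33 ± 0.03 (SE, adjusted p = 0.00028). SQLE, the squalene epoxidase and a rate-limiting step of the pathway, stood at 19.97, 19.4 and 21.7 FPKM against 12.6, 11.9 and 12.4 FPKM. It was 1.65-fold higher, with a log2 fold change of 0.72 ± 0.05 (SE, adjusted p = 0.00012). LSS, which closes the rings to lanosterol, stood at 9.73, 9.58 and 10.6 FPKM against 7.45, 8.03 and 7.77 FPKM, a log2 fold change of 0.36 (adjusted p = 0.0024).

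The part from lanosterol to cholesterol held 4 of the 8 genes that rose. These are 50% of its 8 genes, beside 5.83% of all genes tested, and the median log2 fold change was 0.42. LBR, a sterol reductase like TM7SF2, was placed in the list of other genes around the pathway and was called lower, at -0.55. MSMO1, an oxidase that removes methyl groups from the sterol ring, had the highest log2 fold change of the pathway and ranked 198 among the 13150 genes tested. It lies on chromosome 4 and stood at 56.7, 51.9 and 54.0 FPKM in BrM3-shAKR1B10 and at 24.9, 25.2 and 25.1 FPKM in BrM3-shNC. It was 2.16-fold higher, with a log2 fold change of 1.11 ± 0.04 (SE, adjusted p = 1.1e-05, limma). NSDHL and HSD17B7 act with MSMO1 in the same removal of methyl groups, the first as dehydrogenase and the other as ketoreductase. NSDHL stood at 35.9, 38.5 and 38.0 FPKM against 29.2, 33.5 and 28.4 FPKM, a log2 fold change of 0.31 (adjusted p = 0.011). HSD17B7 stood at 4.60, 4.31 and 4.18 FPKM against 3.03, 2.95 and 3.18 FPKM, a log2 fold change of 0.501 ± 0.06 (SE, adjusted p = 0.0010). HSD17B7 was thus called by a narrow margin and was lost at 0.464 without replicate 1 of BrM3-shAKR1B10, at 0.497 without replicate 1 of BrM3-shNC and at 0.477 without replicate 2 of BrM3-shNC. Leaving out replicate 1 of BrM3-shAKR1B10, or replicate 1 of BrM3-shNC, left 6 of the 8 genes called, with MVK and HSD17B7 lost.

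TM7SF2, a sterol reductase, stood at 13.8, 13.2 and 13.9 FPKM against 6.83, 8.50 and 7.78 FPKM. The groups were far apart and TM7SF2 was 1.76-fold higher, with a log2 fold change of 0.82 ± 0.08 (SE, adjusted p = 0.00040). SC5D, the desaturase of the late pathway, stood at 6.16, 6.11 and 6.13 FPKM against 4.03, 3.80 and 3.44 FPKM, a log2 fold change of 0.70 ± 0.07 (SE, adjusted p = 0.00036). DHCR7, the reductase that makes cholesterol from its direct precursor, was among the most abundant of the enzymes, at 80.6, 75.8 and 82.8 FPKM against 62.1, 67.0 and 66.9 FPKM. Its log2 fold change was 0.29 (adjusted p = 0.0037), under the fold threshold.

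EBP, the isomerase that moves a double bond in the sterol ring, had the lowest log2 fold change of the 26 genes. It stood at 13.1, 10.5 and 11.3 FPKM against 12.6, 15.2 and 16.5 FPKM. The groups overlapped and the difference of -0.34 ± 0.12 (SE, adjusted p = 0.059) did not pass the test. The adjusted p ran from 0.018 to 0.16 among the alternatives. It passed at -0.45 without replicate 1 of BrM3-shNC (0.018), at -0.42 without replicate 1 of BrM3-shAKR1B10 (0.040), with voom (0.025) and at a mean of at least 5 FPKM (0.040). CYP51A1, the lanosterol demethylase, was listed at 1.61, 1.36 and 1.998 FPKM against 1.35, 1.01 and 1.54 FPKM, with overlap and a log2 fold change of 0.33 (adjusted p = 0.24). This level is low for the pathway and uncertain, since 79.4% of the CYP51A1 exons are shared on the same strand with AC000120.2, a gene model listed at 0. Its pseudogenes CYP51A1P1, CYP51A1P2 and CYP51A1P3 together held as much as 26.2% of the CYP51A1 reads in a library, at 16 reads at most. The MSMO1 and HMGCS1 families showed no pseudogene by name, and those of FDPS and HSD17B7 held under 1% of the parent's reads.

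**Figure D3:**
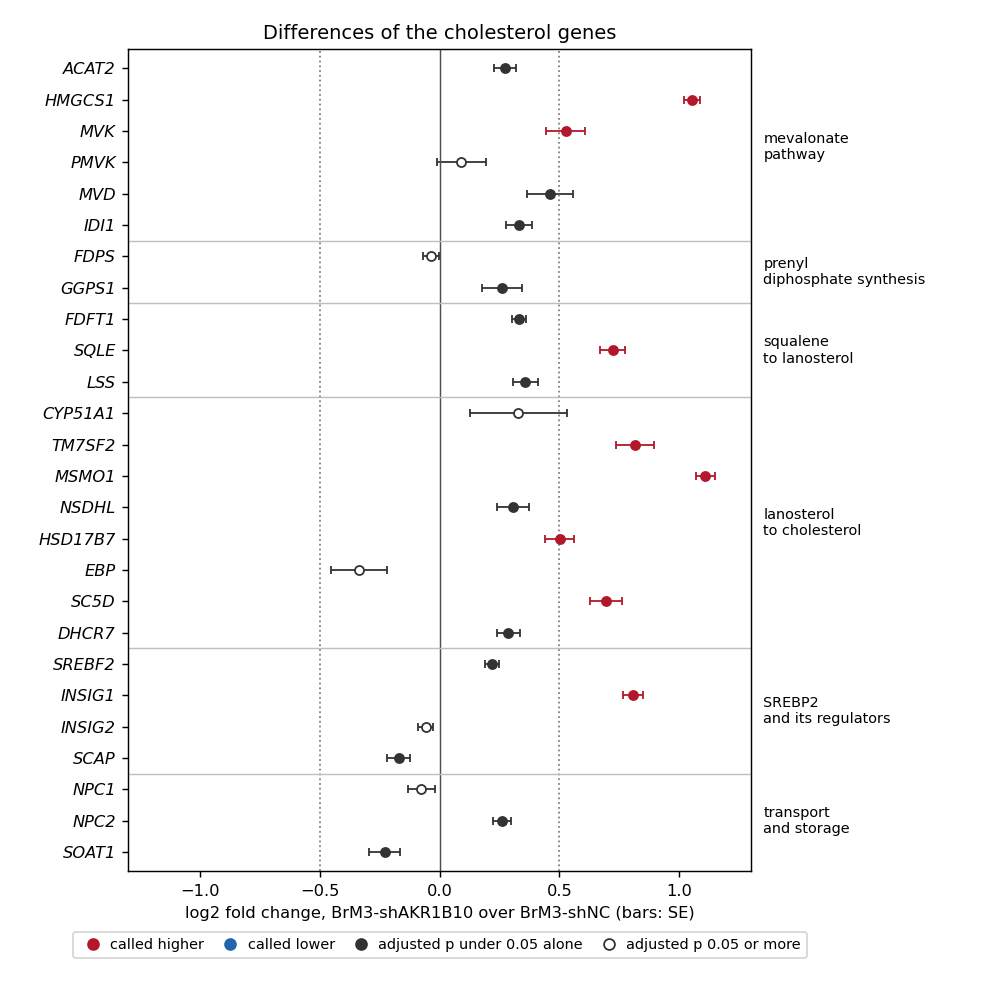
Log2 fold change of each gene, BrM3-shAKR1B10 over BrM3-shNC, with its SE (n = 3 libraries a group), red where called higher, filled black where only the adjusted p passed and open where it did not. The dotted lines mark 0.5 on either side of 0, and MSMO1 at 1.11 and HMGCS1 at 1.05 lie farthest right while EBP at -0.34 lies farthest left.

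Among SREBP2 and the proteins that hold or carry it, INSIG1 alone of 4 genes passed the fold threshold. This is 25% of the group, beside 5.83% of all genes tested that rose. INSIG1, which retains SCAP in the endoplasmic reticulum and is a known target of SREBP2, stood at 40.5, 37.2 and 40.1 FPKM against 22.1, 22.4 and 22.6 FPKM. It was 1.75-fold higher, with a log2 fold change of 0.81 ± 0.04 (SE, adjusted p = 3.1e-05). Its relative INSIG2, which has a like function, stood at 19.4, 19.9 and 19.4 FPKM against 20.7, 20.1 and 20.3 FPKM. The INSIG2 groups did not overlap, yet the log2 fold change of -0.06 did not pass the test (adjusted p = 0.18).

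SREBF2 stood at 43.1, 44.3 and 44.6 FPKM against 38.0, 37.7 and 37.8 FPKM. The silenced libraries were all above the controls by a small step, with a log2 fold change of 0.22 ± 0.03 (SE, adjusted p = 0.0014) that stayed under the fold threshold. SCAP, the escort of SREBP2, stood at 12.2, 11.9 and 12.4 FPKM against 13.1, 13.6 and 14.5 FPKM, a log2 fold change of -0.17 (adjusted p = 0.026). The adjusted p of SCAP reached 0.11 among the alternatives.

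Of the 4 genes that move or store cholesterol inside the cell, 3 were tested and none of these passed both thresholds. NPC2, which hands cholesterol over in the lysosome, was abundant at 85.2, 87.2 and 84.4 FPKM against 72.3, 68.6 and 73.5 FPKM, a log2 fold change of 0.26 (adjusted p = 0.0017). NPC1, its membrane partner, stood at 3.94, 3.82 and 3.75 FPKM against 3.94, 3.95 and 4.29 FPKM, with overlap and a log2 fold change of -0.08 (adjusted p = 0.32). SOAT1, which esterifies cholesterol for storage, stood at 3.50, 3.46 and 3.86 FPKM against 4.41, 4.26 and 4.04 FPKM. It was lower in all 3 silenced libraries, with a log2 fold change of -0.23 (adjusted p = 0.030), and its adjusted p reached 0.088 among the alternatives.

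STARD4, a soluble carrier of cholesterol and a known SREBP2 target, was listed at 0 in all 6 libraries, although 83.0% of the 19951 protein-coding genes had a read in at least 1 library. At this depth 3 reads on 1000 bases of exon would give 0.163 to 0.177 FPKM, a limit that covers counting error only. STARD4 lies on chromosome 5 in a run of 11 neighboring genes that had no read in any library, over 794 kb from 111223653 to 112017309 (GRCh38). The other protein-coding genes of this run were CAMK4 and NREP. The nearest genes with a mean of at least 1 FPKM on either side were WDR36, at 5.38 to 6.05 FPKM, and EPB41L4A-AS1, at 4.59 to 6.87 FPKM. The reason was not tested.

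Other genes around the pathway did not move one way. Of 53 such genes, 45 were tested, of which 1 rose (2.22%, beside 5.83% of all genes) and 5 fell (11.1%, beside 7.45%), and their median log2 fold change was 0.04. Without the fold threshold 17 were higher, 16 were lower and 12 did not pass, where 19.4% and 23.1% of all genes were higher and lower. These counts are small and changed with the scaling, to 3 higher and 3 lower under quantile scaling or voom. Those not tested were IDI2, FAXDC2, CH25H, CYP27A1, CYP7B1, SOAT2, STARD5 and GRAMD1B. NCEH1, a hydrolase that frees stored cholesterol from its esters, rose from 8.67, 8.24 and 8.67 FPKM in BrM3-shNC to 12.3, 12.3 and 12.4 FPKM in BrM3-shAKR1B10. Its log2 fold change was 0.53 ± 0.04 (SE, adjusted p = 0.00011), and the call was lost at 0.49 with a pseudocount of 1.

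LBR, a protein of the inner nuclear membrane, has the same sterol reductase activity as TM7SF2, and the 2 moved in opposite directions. LBR stood at 36.5, 36.8 and 36.3 FPKM against 54.9, 53.7 and 51.5 FPKM, a log2 fold change of -0.55 ± 0.03 (SE, adjusted p = 6.6e-05). LBR was thus the more abundant of the 2 in every library, and its call was lost at -0.48 under quantile scaling and at -0.497 under voom. ERLIN2, which takes part in the turnover of sterol-regulated proteins of the endoplasmic reticulum, stood at 3.63, 3.71 and 3.43 FPKM against 5.53, 5.31 and 5.14 FPKM, a log2 fold change of -0.56 (adjusted p = 0.00044) whose call was lost at -0.46 with a pseudocount of 1. COQ2, which joins the prenyl tail to coenzyme Q, fell by 0.50 on the log2 scale (adjusted p = 0.0038) and lost its call at -0.495 without replicate 2 of BrM3-shAKR1B10 and at -0.41 without replicate 2 of BrM3-shNC. The COQ2 call was also lost with TPM (-0.47), quantile scaling (-0.49), voom (-0.46) and a pseudocount of 1 (-0.44).

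ABCG1, a sterol exporter switched on by LXR, stood at 1.20, 0.941 and 0.977 FPKM against 1.47, 1.55 and 1.77 FPKM, a log2 fold change of -0.58 ± 0.15 (SE, adjusted p = 0.023). GRAMD1C, a sterol carrier at membrane contacts, stood at 1.27, 0.985 and 0.938 FPKM against 1.62, 1.56 and 1.47 FPKM, a log2 fold change of -0.51 ± 0.15 (SE, adjusted p = 0.036). Both are low genes whose calls were lost with a pseudocount of 1, at -0.35 for ABCG1 and -0.31 for GRAMD1C, and when single libraries were left out. The GRAMD1C call was also lost with no filter on low genes (adjusted p = 0.066). For ABCG1 the loss with a library left out held for replicates 2 and 3 of BrM3-shAKR1B10 and replicates 2 and 3 of BrM3-shNC, where its log2 fold change stayed between -0.60 and -0.50 and the adjusted p rose to at most 0.079. For GRAMD1C it held for all but replicate 1 of BrM3-shAKR1B10, with log2 fold changes of -0.55 to -0.44 in the fits that lost it and an adjusted p of at most 0.10.

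SREBF1 and ACLY are given for their roles and were chosen after their values were seen. SREBF1, the gene of SREBP1, which acts mainly on fatty acid synthesis, stood at 38.8, 38.0 and 39.0 FPKM against 47.6, 49.5 and 50.3 FPKM. SREBF1 and SREBF2 thus differed in direction, at -0.35 (adjusted p = 0.00035) for SREBF1. ACLY, which supplies acetyl-CoA from citrate, stood at 45.5, 42.0 and 43.8 FPKM against 43.3, 44.7 and 41.5 FPKM, with overlap and a log2 fold change of 0.02 (adjusted p = 0.76).

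**Figure D4:**
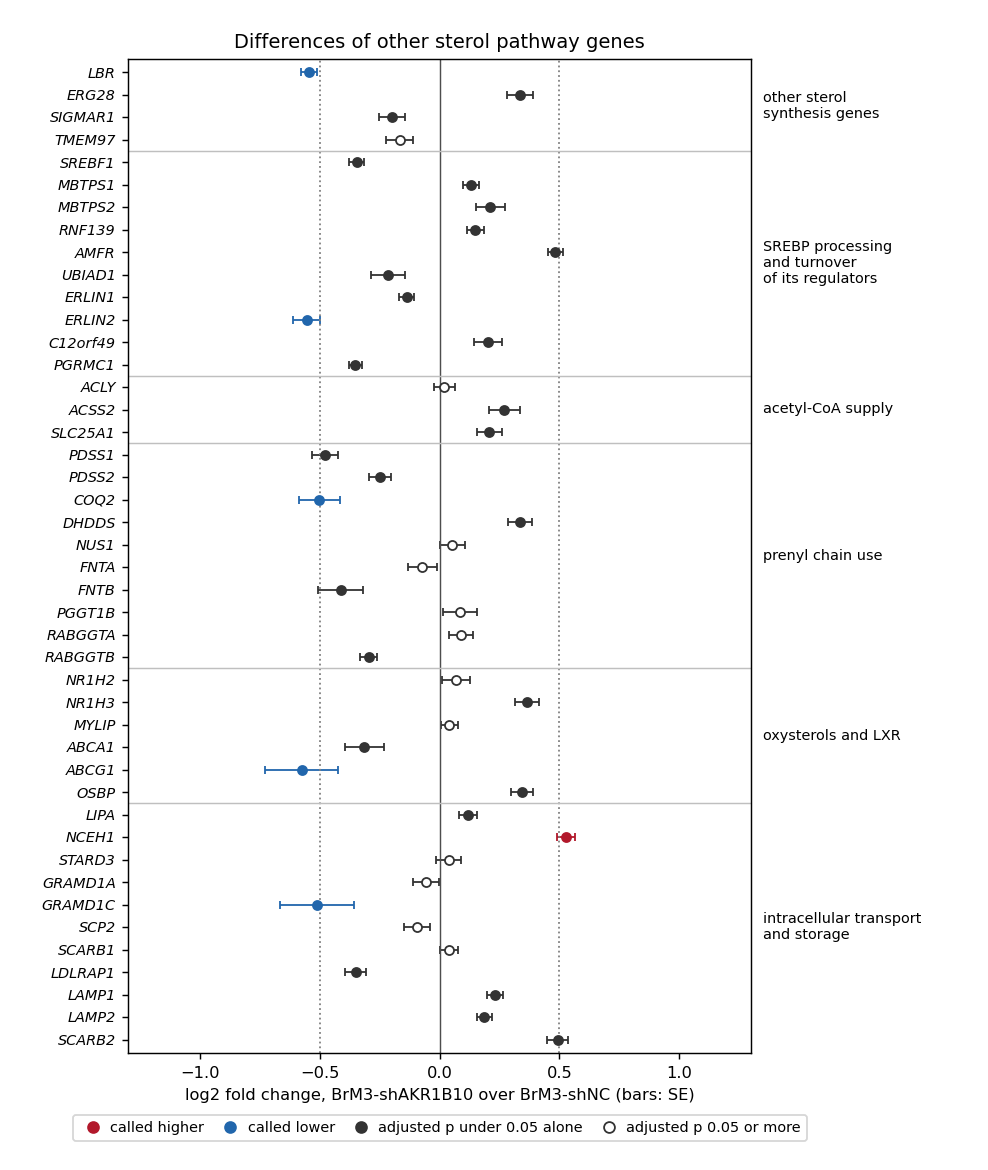
Log2 fold change of other tested genes around the pathway with its SE (n = 3 libraries a group), red where called higher, blue where called lower, filled black where only the adjusted p passed and open where it did not. The values spread to both sides of 0, with NCEH1 alone past the upper dotted line at 0.5 and LBR, ERLIN2, COQ2, ABCG1 and GRAMD1C past the lower line.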

How the data were processed

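The authors aligned the reads with HISAT2 2.0.5, counted them with featureCounts 1.5.0-p3 and deposited FPKM per gene for the 6 libraries. The library sizes recovered from the FPKM values were 98.1% to 102.4% of the reads on genes. Scaling by median of ratios left the calls near the same, at 763 higher and 980 lower against 766 and 980. The FPKM values thus seem to include such a scaling already, which is read from the values alone. That alternative is therefore a weak check. The genome build and the strand setting of the counting are not given in the sources used here, and all 58735 gene positions match GENCODE release 29 (GRCh38), which was used for overlaps and exons.

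The test was limma 3.58.1 (R 4.3.3, eBayes with trend) on the log2 of FPKM plus a pseudocount of 0.1, which understates fold changes of low genes. It ran over the 13150 genes with a mean of at least 1 FPKM, with Benjamini-Hochberg adjustment over all of them, and calls needed both an adjusted p below 0.05 and a log2 fold change beyond 0.5 in size, the study's thresholds. Reads were recovered from FPKM and gene length, with 100% of values whole within 0.1 read, and intervals of depth cover counting error only.

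The genes and lists were chosen with earlier results of these data known. The text names all 27 genes, AKR1B10, called genes of the other list and overlapping genes or pseudogenes with a sizeable share of reads. Other genes named were chosen after their values were seen. Of the other list, 1 further gene is included in its counts and is not reported here by name or value.

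Alternatives were pseudocounts of 1 and 0.01, no filter, a mean of at least 5 FPKM, scaling to TPM, by median of ratios or by quantiles, no trend in eBayes, voom on recovered reads, a replicate block, other thresholds and each library left out. The script was tested on simulated data. The authors' other assays were not analysed here.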

Additional observations from a re-analysis of the deposited data

How the results depend on the processing

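None of the 26 tested genes of the main list of 27 was called lower except on the adjusted p alone, which gave 2 lower and 18 higher. The count of 8 called higher stayed between 6 and 9 in all other alternatives except a log2 fold change over 1, which left 2, HMGCS1 and MSMO1. Without single libraries it was 6 to 9, AKR1B10 stayed at -2.86 to -2.83, and the other pathway genes gave 2 to 5 lower and 1 to 2 higher. HMGCS1, MSMO1, SQLE, TM7SF2, SC5D and INSIG1 kept their call in every alternative at the threshold of 0.5 that tested them. MVK (0.45) and HSD17B7 (0.40) lost theirs with a pseudocount of 1, and quantile scaling kept 7 of the 8, losing HSD17B7 (0.495) and adding MVD (0.51). Under mean FPKM of at least 5, HSD17B7 and SC5D were not tested, which left 6 called.

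Of the other pathway genes, 5 were called lower and 1 higher. The lower count was 1 with a pseudocount of 1, 2 with a mean of at least 5 FPKM, 3 with quantile scaling, 3 with voom, 16 on the adjusted p alone and 0 over a log2 fold change of 1. The higher count was 0 with a pseudocount of 1, 3 with TPM, 3 with quantile scaling, 3 with voom, 17 on the adjusted p alone and 0 over 1. The sign of FDPS turned to 0.00096 with TPM, 0.023 with quantile scaling and 0.014 with voom, and that of PMVK, which ranged from -0.012 to 0.15 without single libraries, turned without replicate 1 of BrM3-shNC. The causes were not tested.

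Over all genes, 766 were called higher and 980 lower, against 984 and 851 with voom, 1138 and 1012 with TPM, 290 and 532 with a mean of at least 5 FPKM and 497 and 708 with a pseudocount of 1. Same-numbered libraries did not deviate together (correlations of -0.016 to 0.0039). With a replicate block, 8 of the 26 tested genes of the main list were called higher, 0 lower, and 3 of the other pathway genes lower, with ABCG1 and GRAMD1C lost. With 3 libraries a group, the difference of CYP51A1 (0.33 ± 0.20, SE) was not resolved, and the reason was not tested.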
